A study of Mus musculus with 24 samples.

Results

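The genes described here encode voltage-gated sodium and calcium channels and all potassium channels, with their auxiliary subunits, as far as their symbols follow the Kcn, Scn and Cacna, Cacnb and Cacng naming. Of 21909 symbols in the RNAseq tables of mouse ESCs (embryonic stem cells) and of NPCs (neural progenitors made from them), 131 matched: 91 potassium, 14 sodium and 26 calcium channel genes, sorted into 13 families. They comprise 86 pore subunits, 10 modifier subunits that join other pore subunits and 35 auxiliary subunits. The study mapped contacts of the genome with nucleoli in both cell types and asked how they change on neural differentiation, and the expression comparison shows which genes differ between the same cell types.

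RNA was taken from 3 ESC and 3 NPC cultures, each group from independent dishes. The ESCs were untreated E14 cells, a line of strain 129, grown without feeders in 2i medium, which holds LIF, CHIR99021 and PD0325901. The NPCs were derived from E14 cells as embryoid bodies in suspension in a medium with fetal calf serum, and were collected on day 8 after 4 final days with 2 µM retinoic acid. Medium, culture form and cell type cannot be told apart in this design. For contacts with the nucleolus, E14 lines with a transgene at Rosa26 made either H2B-Dam-NoLS, in which a signal for the nucleolus directs histone H2B and the methyltransferase Dam, or the control H2B-Dam. Each fusion was measured in 2 ESC and 2 NPC samples, induced for 15 h by doxycycline at 100 ng/ml together with Shield1 at 1 µM, and these NPCs had been replated as single cells. Depth, recovered from the deposited values, was 34051992, 33732018 and 30779728 counted reads in ESC replicates 1 to 3 and 30151252, 27262786 and 32297555 in NPC replicates 1 to 3.

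Voltage-gated channels open when the membrane depolarizes: sodium channels carry the rising phase of an action potential, calcium channels turn electrical activity into calcium entry, and potassium channels bring the membrane back. Inward rectifiers and tandem-pore potassium channels (K2P) set the resting potential, and calcium-activated potassium channels couple both ions. Each pore family has auxiliary subunits that set how much channel reaches the membrane and how it gates, such as alpha2delta and beta subunits of calcium channels. These genes are best known from neurons, heart and muscle, but progenitor cells also carry K2P channels, inward rectifiers and calcium channels of the T type, which open at weak depolarization.

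The deposited RPKM values divide exon reads by the whole span of a gene with its introns, which for the channel genes was a median of 10 times the exon length (1 to 313 times) against 4.86 times for all genes. Levels are therefore given here as exon RPKM, computed with the exon length of all annotated isoforms, unless plain RPKM, as deposited, is named. Ratios between cell types are of RPM, the reads scaled to the depth of each sample. Whole reads could be recovered for 129 of the 131 genes, all but Kcnk4 and Kcnk9. Of the channel genes, 9 share at least 10% of their exon bases with another gene, among them Kcna6, Kcnj3, Kcnj13, Kcnk2, Kcnk4, Kcnmb4, Cacna1s and Cacnb4, so the reads counted for them may in part belong to the other gene.

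ESC replicate 3 stood apart from the other libraries. Its mean correlation with the other ESC replicates was 0.9794 on the log2 scale, against 0.9888 and 0.9897 for replicates 1 and 2 and at least 0.9981 among NPCs. It held more reads on genes with short exon length and fewer on genes with long exon length: its median log2 ratio to the other ESC replicates was 0.58 for genes of 168 to 2372 exon bases and -0.93 for genes from 8368 bases up. Many pore subunits have long transcripts, so ESC values below are given per replicate where this library decides a call.

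Marker genes fit the labelled cell types only in part. Pou5f1, the core pluripotency factor, had 21039, 21749 and 29573 reads in ESCs and 8, 5 and 10 in NPCs, and 10 of 10 pluripotent cell markers were lower in NPCs, with summed levels of 3818, 3798 and 7189 exon RPKM in ESCs and 20.46, 19.91 and 18.69 in NPCs. Pax6, which defines the radial glia-like progenitors of this protocol, rose from 13, 16 and 4 reads to 1328, 1105 and 1535. Of 12 neural progenitor markers, 10 passed a filter of 1 RPKM and 7 of these were called higher, among them Nes and Sox3, while Sox2, which ESCs also express, was lower (150.9 to 8.43 RPKM). The summed level of these markers was 244.5, 245.6 and 242.3 exon RPKM in ESCs and 197, 212.7 and 224.4 in NPCs, with Vim the most abundant in NPCs. Markers of other cells moved as well. Of 11 endoderm and mesoderm markers, 6 passed that filter and 6 were higher, led by Gata4 (0.0347 to 5.90 RPKM) and Gata6 (0.00454 to 6.69 RPKM); at a mean of 0.1 RPKM, T and Pecam1 were tested too and lower. Their summed level went from 23.5, 23.26 and 18.35 exon RPKM in ESCs to 192.9, 186.6 and 187.4 in NPCs, with T and Mesp1 under 10 reads in every NPC sample. In these bulk samples, a change in the number of cells of a type and a change in RNA per cell cannot be told apart, and the part that cells outside the neural lineage had in the channel values below was not tested.

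Heart, muscle, neuron, glia and neural crest markers were measured because channel genes are also known from these cells. Of 12 cardiac markers, 4 passed a mean of 0.1 RPKM, 3 of them higher and 1 lower. The summed cardiac level was 15.25, 15.21 and 25.61 exon RPKM in ESCs and 41.1, 66.56 and 69.5 in NPCs, most of it Myl7 (43.8 exon RPKM in NPCs), an atrial myosin light chain, while Myl2 and Nppa stayed under 10 reads in every NPC sample. The skeletal muscle list summed to 58.27, 55.1 and 113.3 in ESCs and 5.23, 5.48 and 5.74 in NPCs, with 3 of 8 genes tested, 2 higher and 1 lower (Mylpf). Myod1, Myog, Myf5, Myh3 and Ckm were under 10 reads in every NPC sample. Of 21 neuron markers, 13 were tested, with 8 higher and 4 lower. Tubb3 fell from 7.28 to 4.15 RPKM and Stmn2 from 5.28 to 0.306, whereas Ina and Nefl rose to 3.09 and 2.69. Other neuron markers rose further from low values: Dcx had 0 reads in each ESC sample and 2457, 1735 and 2186 in NPCs, Elavl3 went from 33, 27 and 31 to 967, 742 and 1049, Isl1 from 11, 19 and 13 to 264, 206 and 286 and Rbfox3 from 3, 2 and 1 to 235, 176 and 241. In recovered reads, 14 of 20 neuron markers tested were higher and 4 lower, with a median log2 ratio of 3.09 against 0.34 for all genes (0 reads set to a floor of 3 per sample), and 13 were higher and 7 lower after quantile normalization. Most neuron markers tested thus moved in the direction of most channel genes below. The summed neuron level was 97.12, 104.2 and 125.2 exon RPKM in ESCs and 94.94, 82.35 and 93.1 in NPCs, with Stmn2 the most abundant gene in ESCs and Tubb3 in NPCs, and Slc17a6 under 10 reads in every NPC sample. Of 9 glia markers, 5 were tested, 4 higher, led by Olig2 and Olig1, and 1 lower, Aldh1l1. Their sum fell from 14.63, 14.81 and 17.51 to 5.21, 6.35 and 5.80 exon RPKM, with Aldh1l1 the most abundant in ESCs and Mbp in NPCs. In RPKM as deposited, the sum rose instead, from 1.013, 0.912 and 0.999 to 1.479, 2.132 and 1.883. Gfap and S100b had fewer than 10 reads in every NPC sample. Of 7 neural crest markers, 5 were tested, 2 higher, led by Ednrb, the most abundant in NPCs, and 3 lower, led by Foxd3. Their sums were 27.34, 29.66 and 20.7 in ESCs and 24.31, 24.34 and 25.72 in NPCs. In recovered reads, counts higher and lower were 9 and 1 of 12 tested neural progenitor markers, 6 and 2 of 9 cardiac, 2 and 2 of 4 skeletal muscle, 5 and 1 of 6 glia, 4 and 3 of 7 neural crest and 6 and 2 of 8 endoderm and mesoderm markers, against 45.9% and 28.1% of all genes. No ESC sample had 10 reads for 3 of the neuron and 3 of the neural progenitor markers tested, and for 2, 2, 3, 4 and 3 in the other lists in this order. The 2 lower cardiac markers became 0 without NPC replicate 1 or NPC replicate 2 and 1 without ESC replicate 2 or NPC replicate 3. After quantile normalization, 2 glia markers and 1 skeletal muscle marker were higher. These marker levels stand beside every channel result that follows, and their part in it was not tested.

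Channel transcripts were more abundant in NPCs. Together the channel genes had 303.7, 301.5 and 229.9 RPM in the ESC samples and 1117, 1156 and 1139 in the NPC samples, a mean of 4.09 times the ESC level, or 3.76 times without ESC replicate 3. The groups did not overlap. In ESCs, 4 genes made up 51.5% of these reads: Kcnk5, a K2P channel, Cacna1a, the P/Q-type calcium channel pore, and the calcium channel beta subunits Cacnb3 and Cacnb1. In NPCs, the first 4 were all calcium channel subunits, Cacna1h, Cacnb3, Cacna2d2 and Cacna1g, with 42.5% of the reads. At least 100 reads in each NPC sample were counted for 45 channel genes, and at least 100 in each ESC sample for 17.

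Most channel genes were low in both cell types. A mean of at least 1 RPKM, the study's limit for an expressed gene, was reached by 4 genes in ESCs, 8 in NPCs and 3 in both, or 3.05%, 6.11% and 2.29% of the channel genes against 29.3%, 33.4% and 25.7% of all genes. On the exon scale, 13 reached 1 in ESCs, 37 in NPCs and 8 in both, or 9.92%, 28.2% and 6.11% against 46.3%, 52.7% and 42.8% of all genes. The step from 8 to 37 genes in NPCs shows how far the span of long channel genes lowers their deposited values.

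Differences were tested with limma over all genes, in 3 ways that differ in which low genes they admit. With at least 1 RPKM in 3 samples, 9 channel genes were tested: Kcna5, Cacna1h, Cacnb3, Kcnj8, Kcnj2 and Kcnh2 were higher in NPCs, Kcnk5 was lower, and 2, Cacnb1 among them, were not called. Over all 7757 genes tested in this way, 37.0% were higher and 33.1% lower. With a mean of at least 0.1 RPKM, 32 channel genes were tested, 21 higher and 5 lower, against 41.4% and 29.9% of 12027 genes. With recovered reads, at least 10 in 3 samples, 95 channel genes were tested, 71 higher, 11 lower and 13 not called, against 45.9% and 28.1% of 14505 genes. This comparison of reads was added after the data had been seen. The median log2 difference of the channel genes was 1.08, 1.63 and 3.77 in the 3 ways, beside 0.03, 0.18 and 0.38 for all genes. With genes at 0 reads set to a floor of 3 reads per sample, the last pair was 3.60 and 0.34.

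These counts need the filters beside them. Of the 95 genes with enough reads, 39 had no ESC sample at 10 reads and 5 had no NPC sample at 10, so these genes entered through the group where they were high and had to differ. All 6 samples reached 10 reads for 35 genes. Of the 9 genes tested at 1 RPKM, 5 had no ESC sample at that level. At the filter of a mean of 0.1 RPKM, 14 of the channel genes tested reached it in NPCs alone and 3 in ESCs alone. The median of all genes also moved with the scaling of the samples: it was 0.18 at the 0.1 RPKM filter and -0.21 after median scaling and -0.10 after quantile normalization, and the share of all calls that were higher in NPCs went from 58% to 43.4% and 46.1%. In recovered reads, the median of all genes was 0.38, 0.08 and -0.14, and that share 62%, 53.5% and 45.7%. The channel counts moved with it: in recovered reads, 71 higher and 11 lower became 67 and 12 after median scaling and 57 and 26 after quantile normalization, and at 0.1 RPKM, 21 and 5 became 18 and 9, then 17 and 10. A channel gene with a log2 difference near these medians changed no more than most genes did.

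**Figure D1:**
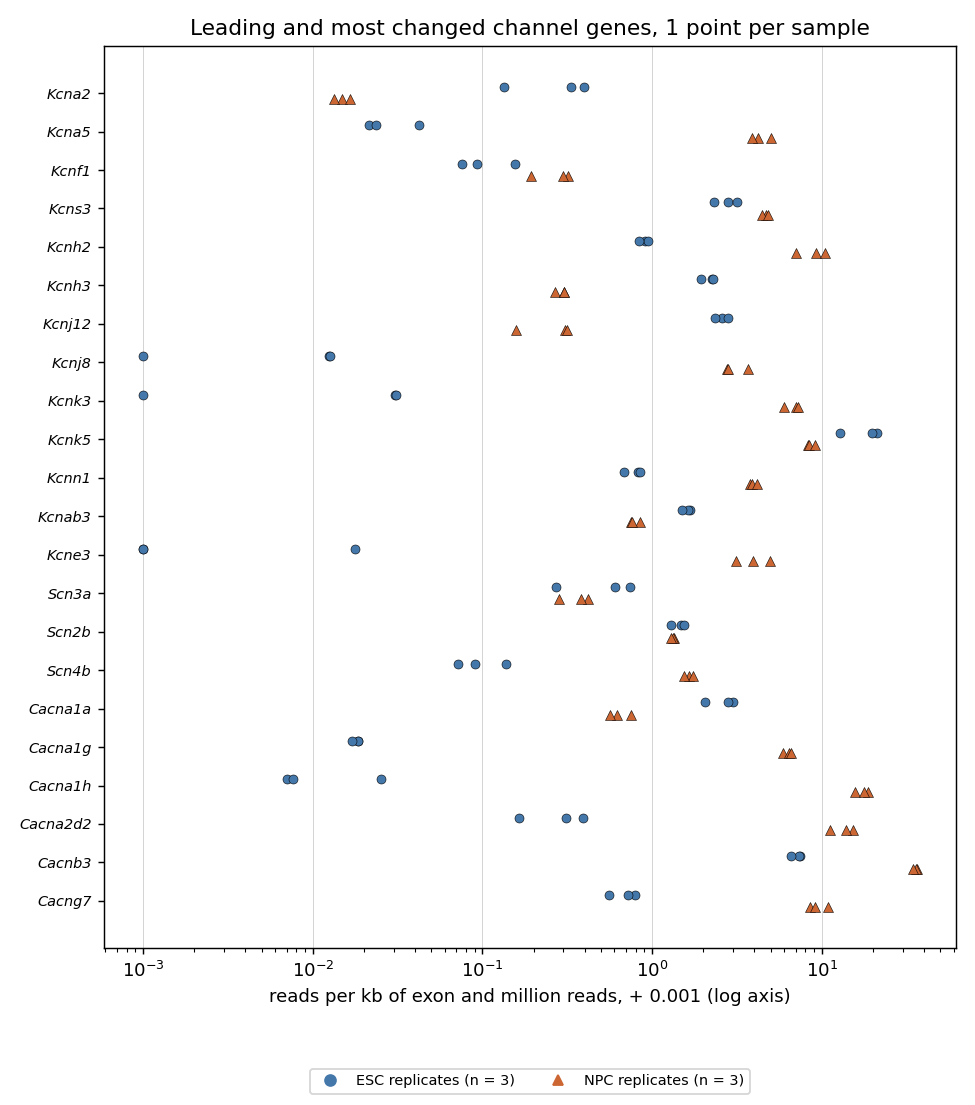
Level of each of 22 channel genes, chosen among family leaders and the most changed, in every sample. The x axis is exon RPKM with 0.001 added, on a log axis, circles are the 3 ESC replicates and triangles the 3 NPC replicates. Cacna1h, Cacna1g, Kcnk3 and Kcne3 lie at the far left in ESCs and at the right in NPCs, Kcna2, Kcnh3 and Kcnj12 lie the other way round, and the symbols of Scn3a and Scn2b overlap.

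The pore subunits of calcium channels changed their leading member. Cacna1a, the P/Q-type pore of synapses, held 96.5% of the summed exon RPKM of the family in ESCs and fell in NPCs, while Cacna1h, a T-type pore, held 60.8% in NPCs. Cacna1h had 2, 8 and 2 reads in ESCs and 4624, 4979 and 5624 in NPCs. No other channel gene had more reads in NPCs. Its level rose from 0.0123 ± 0.0104 to 17.4 ± 1.54 exon RPKM (SD, n = 3 each), with an adjusted p of 1.63e-06 in limma on reads. The ratio of 1414 rests on few ESC reads and lay between 1126 and 2749 when single samples were left out. The gene spans chr17:25374285-25433783 on the minus strand. Cacna1g, a further T-type pore, had 6, 6 and 5 reads in ESCs and 1799, 1762 and 2151 in NPCs, 370 times as many at equal depth (adjusted p = 8.18e-07). Cacna1i, the last T-type pore, went from 2, 2 and 0 reads to 270, 371 and 406. All members of the T-type group were thus at 8 reads or fewer in each ESC sample and above 250 in each NPC sample.

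L-type pores, which open at strong depolarization and are blocked by dihydropyridines, were below Cacna1h and Cacna1g in NPCs. Cacna1c had 7, 11 and 5 reads in ESCs and 779, 756 and 956 in NPCs, which is 1.31 exon RPKM, and Cacna1d went from 1, 4 and 0 reads to 358, 260 and 259. Cacna1b, the N-type pore, and Cacna1e, the R-type pore, also rose, to 0.660 and 0.301 exon RPKM. In contrast, Cacna1a had 1169, 1080 and 723 reads in ESCs and 214, 234 and 208 in NPCs, a level 4.07 times as high in ESCs (log2 difference -2.02 ± 0.20, adjusted p = 9.2e-05), and groups that did not overlap. Cacna1s, of skeletal muscle, and Cacna1f, of the retina, stayed under the read filter. Of 8 alpha1 genes tested, 7 were higher and 1 lower, against 45.9% and 28.1% of all genes, and 5 of the 8 had no ESC sample at 10 reads. The summed level of the family was 3.10, 2.93 and 2.13 exon RPKM in ESCs and 26.3, 30.3 and 29.3 in NPCs.

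Several auxiliary subunits of calcium channels were higher in NPCs too. Cacnb3, a cytoplasmic beta subunit that brings alpha1 subunits to the membrane, was the most abundant channel gene on the exon scale in NPCs. It had 1012, 988 and 817 reads in ESCs and 4390, 3951 and 4471 in NPCs, or 7.11 ± 0.430 and 35.7 ± 0.987 exon RPKM, a log2 difference of 2.33 ± 0.11 with an adjusted p of 2.81e-06. Its share of the summed beta subunits went from 57.4% to 85.4%. Cacnb1 did not share in this: it had 791, 845 and 717 reads in ESCs and 736, 651 and 780 in NPCs, 5.27 and 5.33 exon RPKM, and was not called (adjusted p = 0.878), although after quantile normalization it was called lower, with a log2 difference of -0.50. Cacnb2 went from 2, 3 and 2 reads to 252, 186 and 236, and Cacnb4 from 3, 5 and 0 to 63, 52 and 50.

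Cacna2d2, an alpha2delta subunit that raises the number of channels at the membrane, had 84, 104 and 40 reads in ESCs and 2673, 3293 and 3555 in NPCs, a 46.6-fold rise to 13.4 ± 2.06 exon RPKM (adjusted p = 5.29e-06). Cacna2d1, which binds gabapentin as Cacna2d2 does, rose 12.2-fold to 3.31 exon RPKM. Cacna2d3 was also higher, at 0.368 exon RPKM, and Cacna2d4 did not reach the read filter. Of the gamma subunits, several of which also guide AMPA receptors, Cacng7 rose from 66, 59 and 42 reads to 798, 567 and 719 and Cacng4 from 21, 14 and 30 to 591, 470 and 501. These are 9.49 and 4.88 exon RPKM in NPCs. Cacng6 and Cacng8 were called higher with at most 39 reads in a sample, and both turned negative after quantile normalization. The call of Cacng8 was also lost after median scaling (adjusted p = 0.0661) and without ESC replicate 1, ESC replicate 2 or NPC replicate 2 (0.0649, 0.0569 and 0.0562). Cacng5 was lower, with 17, 21 and 12 reads against 5, 7 and 6. Cacng1, Cacng2 and Cacng3 had at most 10 reads in any sample.

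Sodium channel pores stayed low. They summed to 1.10, 0.967 and 0.558 exon RPKM in ESCs and 3.91, 3.64 and 3.67 in NPCs, the lowest NPC sum of the 13 families. Scn8a, a pore of axon initial segments, went from 143, 139 and 113 reads to 558, 472 and 584, a log2 difference of 2.16 ± 0.12. Scn2a, Scn1a and Scn10a were higher at 0.328, 0.157 and 0.0917 exon RPKM. Scn3a, known from fetal brain, led in ESCs with 313, 255 and 104 reads and had 158, 96 and 152 in NPCs. It was not called with all samples (log2 difference -0.48, adjusted p = 0.303) and was called lower without ESC replicate 3 (-0.90, adjusted p = 0.00036) and after quantile normalization (-1.85, adjusted p = 0.00152). Scn4a was not called with all samples, was higher without ESC replicate 1 (adjusted p = 0.00888) and was lower after quantile normalization. Scn7a, Scn9a and Scn11a had at most 10 reads in any sample. Of 7 pores tested, 5 were higher and 0 lower with all samples, against 45.9% and 28.1% of all genes, and 5 and 2 after quantile normalization. Of the 7, 3 had no ESC sample at 10 reads.

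The sodium channel beta subunits are small adhesion proteins that bind the pore. Scn4b rose from 12, 15 and 21 reads to 248, 238 and 247 (log2 difference 4.07 ± 0.25, adjusted p = 8.83e-06). Scn2b, which led in ESCs, had 233, 241 and 185 reads in ESCs and 190, 169 and 193 in NPCs, and was not called, but was called lower after median scaling (-0.40) and quantile normalization (-1.38). At the filter of a mean of 0.1 RPKM, Scn2b was also called lower without ESC replicate 3 (log2 difference -0.15, adjusted p = 0.0343 in limma). Scn3b was not called with 107, 92 and 45 reads against 94, 74 and 92, although it too was called lower after quantile normalization. The call of Scn4b held after both scalings and in each analysis without a sample.

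Among voltage-gated potassium channel pores, the Shaker-type gene Kcna5 stood out. It had 2, 4 and 2 reads in ESCs and 434, 326 and 360 in NPCs, 155 times as many at equal depth (136 to 202 without single samples), and reached 4.37 ± 0.591 exon RPKM (adjusted p = 2.64e-06). Its gene, at chr6:126532551-126535412 on the minus strand, has no annotated intron, so both scales give the same level. Kcna2, a pore of axons, moved the other way: 161, 133 and 49 reads in ESCs and 5, 4 and 6 in NPCs, or 20.6 times as many at equal depth in ESCs (adjusted p = 0.000735). Kcna1, Kcna3 and Kcna6 were also higher, at 0.414, 0.804 and 0.730 exon RPKM in NPCs, and Kcna7 was called higher with at most 19 reads in a sample and turned negative after quantile normalization. Kcna10 had 0 reads in all 6 samples.

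The Shab, Shaw and Shal groups differed gene by gene. Kcnb2, which carries delayed rectifier current in neurons, went from 0 reads in each ESC sample to 66, 45 and 40. Kcnc1, a fast-spiking channel, had 0 reads in each ESC sample and 97, 75 and 145 in NPCs, at least 38.1-fold higher than a floor of 3 reads per sample. Kcnd2, the main Shal pore of dendrites, had 0 reads in ESCs and 253, 168 and 213 in NPCs, at least 77-fold higher. Kcnd1 was level at 329, 327 and 254 reads against 310, 269 and 306 (adjusted p = 0.476), and after quantile normalization it was called lower, at -0.92. Kcnc4 was called lower from 19, 10 and 10 reads to 6, 3 and 0, a call lost without ESC replicate 1, ESC replicate 2, NPC replicate 2 or NPC replicate 3 (adjusted p = 0.0979, 0.0604, 0.0593 and 0.0598). Kcnd3 rose from 52, 45 and 28 reads to 165, 115 and 145, a call lost after quantile normalization (0.21). Of 15 genes tested in this family, 11 were higher and 2 lower, against 45.9% and 28.1% of all genes, and 9 and 4 after quantile normalization. Of the 15, 8 had no ESC sample at 10 reads.

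The modifier subunits of the Kcnf, Kcng, Kcns and Kcnv groups form no channel of their own and alter other voltage-gated pores. Kcns3 led in both cell types on the exon scale, with 249, 297 and 310 reads in ESCs and 445, 382 and 491 in NPCs, or 2.76 and 4.63 exon RPKM. Its rise (log2 difference 0.76, adjusted p = 0.00281) was lost after median scaling (0.48, adjusted p = 0.0541) and turned to -0.12 after quantile normalization. Kcnf1, which led in NPCs on the scale of the deposited RPKM, had 15, 25 and 11 reads against 46, 25 and 46, and its call was lost after quantile normalization, with -0.64. Kcng1 rose from 4, 2 and 4 reads to 158, 94 and 129, and this call held after both scalings. Kcng3 was not called with all samples, was higher without ESC replicate 2 (adjusted p = 0.0412) and was lower after quantile normalization. The other 6 genes did not reach the read filter.

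In the families of Kcnh and Kcnq genes, the leading gene also changed. Kcnh3, an EAG-like pore of forebrain neurons, had 382, 439 and 406 reads in ESCs and 46, 47 and 56 in NPCs, a level 7.52 times as high in ESCs (log2 difference -2.89 ± 0.16, adjusted p = 6.24e-06). Kcnh2, which encodes the ERG channel of heart and neural tissue, had 149, 154 and 125 reads in ESCs and 1027, 1223 and 1633 in NPCs, a 9.96-fold rise to 8.91 ± 1.73 exon RPKM (adjusted p = 7.24e-06). Kcnh3 held 60.4% of the family in ESCs and Kcnh2 64.2% in NPCs. Kcnq5 and Kcnq3, which carry M current that limits repeated firing, were near 0 in ESCs. Kcnq5 rose from 2, 0 and 2 reads to 560, 453 and 578 and Kcnq3 from 6, 5 and 1 to 252, 231 and 247. Kcnh1 was higher at 0.253 exon RPKM. Kcnh7 was not called, but was lower after quantile normalization (-1.46), and Kcnh4 was called higher at 24 to 34 reads in NPCs, a call lost after median scaling and without any 1 of the samples but ESC replicate 1 (adjusted p from 0.0583 to 0.114), and turned to lower after quantile normalization. Kcnh5, Kcnh6 and Kcnh8 were below the read filter.

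Inward rectifiers let potassium pass more easily into the cell than out. Kcnj12 made up 78.3% of the family in ESCs, with 241, 259 and 198 reads, and fell to 13, 23 and 28 in NPCs, a level 9.9 times as high in ESCs (adjusted p = 3.64e-05). Kcnj2, which encodes Kir2.1, a close relative of the Kir2.2 encoded by Kcnj12, went from 1, 2 and 2 reads to 414, 309 and 356, 235 times as many at equal depth (194 to 271 without single samples). Kcnj8 and Kcnj11 encode the pores of ATP-sensitive potassium channels. Kcnj8 had 1, 1 and 0 reads in ESCs and 284, 192 and 230 in NPCs, a ratio of 388 with an exact 95% counting interval of 107 to 3209. Counting intervals, here and below, pool the reads of each group and leave out variation between replicates. Kcnj11 had 0 reads in ESCs and 131, 97 and 142 in NPCs, at least 44.8-fold higher. Their sulfonylurea receptor partners, Abcc8 and Abcc9, rose from 14, 4 and 1 reads to 378, 388 and 578 and from 1, 0 and 0 to 17, 16 and 16. Kcnj4, Kcnj5, Kcnj10, Kcnj15 and Kcnj9 were also called higher, at 1.33 exon RPKM for Kcnj4 and under 0.45 for the others, but after quantile normalization Kcnj4 and Kcnj10 were not called and Kcnj9 turned negative. Kcnj6, a G protein-gated pore, was lower, with 13, 19 and 14 reads against 5, 2 and 0.

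K2P channels carry background potassium current. Kcnk5, which encodes the acid-sensitive TASK2 channel, was the most abundant channel gene of ESCs, with 2447, 2283 and 1349 reads or 17.96 ± 4.44 exon RPKM, 84.9% of its family. It fell to 851, 776 and 998 reads, 8.58 ± 0.435 exon RPKM (log2 difference -1.03 ± 0.20, adjusted p = 0.00298), and the groups did not overlap. Kcnk3, which encodes TASK1, had 4, 4 and 0 reads in ESCs and 720, 763 and 925 in NPCs, 341 times as many at equal depth (227 to 457 without single samples, adjusted p = 2.25e-05), and reached 6.75 ± 0.649 exon RPKM. The summed level of the family was 24.7, 23.3 and 15.4 exon RPKM in ESCs and 20.0, 21.2 and 22.2 in NPCs, so that its total overlapped between the groups while its make-up differed. Kcnk1 was level at 2.17 and 2.11 exon RPKM (adjusted p = 0.792), and was called lower after quantile normalization, at -1.45. Kcnk6 rose from 163, 121 and 41 reads to 194, 207 and 277, a call lost after quantile normalization and without either NPC replicate 2 or NPC replicate 3. Kcnk2, a channel opened by stretch, and Kcnk10, Kcnk16 and Kcnk18 were higher at 0.0921 to 0.645 exon RPKM. Kcnk7, Kcnk12, Kcnk13 and Kcnk15 were below the read filter.

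Channels opened by intracellular calcium or sodium were led by Kcnn1, a small-conductance channel, in both cell types. It had 106, 128 and 119 reads in ESCs and 520, 488 and 615 in NPCs, a log2 difference of 2.33 ± 0.14 with an adjusted p of 8.3e-06. Kcnn3 rose from 14, 17 and 5 reads to 419, 367 and 449. Kcnma1, the large-conductance BK pore, had 1, 1 and 0 reads in ESCs and 99, 52 and 59 in NPCs, for a level of 0.138 exon RPKM. Its auxiliary subunit Kcnmb2 was far higher than the pore: 1, 2 and 0 reads in ESCs and 456, 388 and 453 in NPCs, or 4.62 exon RPKM, a ratio of 475 with a counting interval of 162 to 2306. Kcnmb4 also rose, to 0.763. Kcnu1, a pore known from sperm, was lower in NPCs, with 35, 35 and 40 reads against 2, 2 and 6 (adjusted p = 0.000192). Kcnn2 and Kcnn4 were not called, but were lower after quantile normalization (-1.19 and -2.26). Kcnt1 was higher with 25, 26 and 26 reads in NPCs, and Kcnt2, called higher, turned negative after quantile normalization.

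Among the other auxiliary subunits of potassium channels, the Kv beta and KChIP groups each held genes that rose and genes that fell. Kcne3, a single-pass subunit, had 0, 1 and 0 reads in ESCs and 265, 191 and 179 in NPCs, a ratio of 698 with a counting interval of 125 to 27599, and 4.00 ± 0.914 exon RPKM. Of the Kv beta subunits, Kcnab2 rose from 12, 13 and 2 reads to 401, 350 and 389 and Kcnab1 from 19, 25 and 8 to 191, 193 and 221. Kcnab3, which led in ESCs, fell from 164, 158 and 133 to 65, 66 and 70 (log2 difference -1.03 ± 0.15, adjusted p = 0.00066). The calcium-binding KChIP subunits, which partner with Kcnd pores, included Kcnip3 and Kcnip2: Kcnip3 rose from 21, 18 and 22 reads to 319, 318 and 304, and Kcnip2 fell from 152, 154 and 136 to 51, 33 and 53. Kcnip4 was called higher, and this call was lost after quantile normalization. The summed level of these subunits, Kcnmb genes included, was 3.73, 3.65 and 3.23 exon RPKM in ESCs and 19.1, 18.2 and 16.1 in NPCs.

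**Figure D2:**
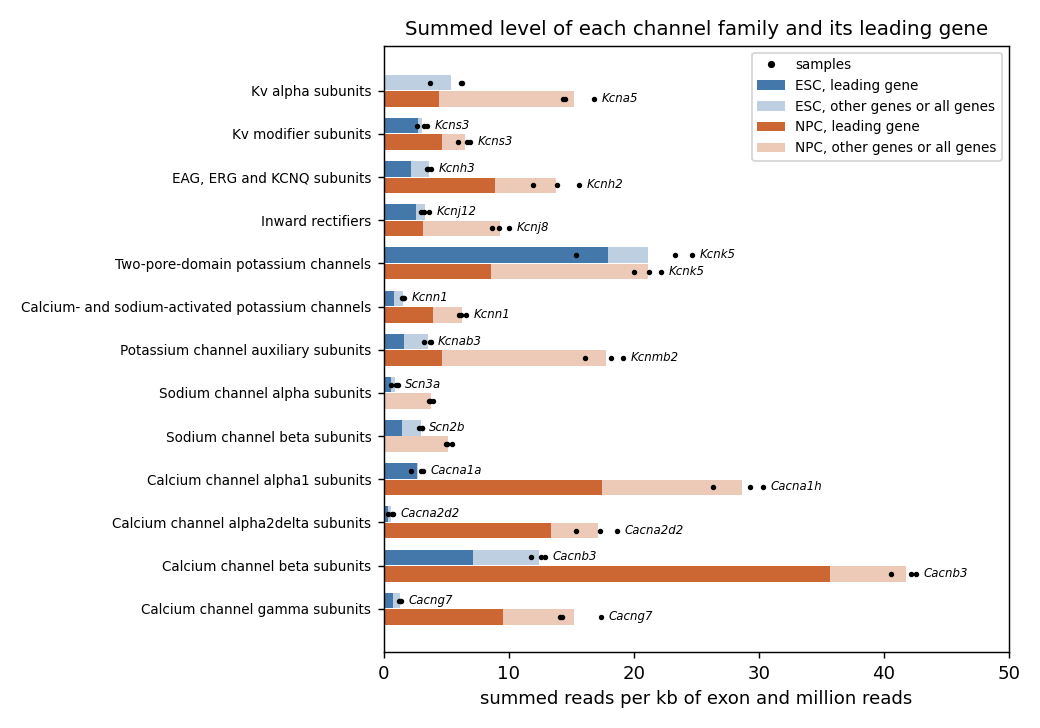
Summed exon RPKM of each of the 13 families, with the mean of the 3 ESC replicates above the mean of the 3 NPC replicates. The dark part of a bar is the leading gene where one is named beside it, the pale part the other genes, or all genes where none is named, and dots are the sums in single samples. The calcium channel beta and alpha1 families show the highest NPC sums, led by Cacnb3 and Cacna1h, and the K2P family (two-pore-domain) has sums that overlap between the groups.

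The 11 genes called lower in reads came from 8 families: Kcna2, Kcnc4, Kcnh3, Kcnj6, Kcnj12, Kcnk5, Kcnu1, Kcnab3, Kcnip2, Cacna1a and Cacng5. By ion, 47 of 64 potassium channel genes tested were higher and 9 lower, 7 of 11 sodium channel genes were higher and 0 lower, and 17 of 20 calcium channel genes were higher and 2 lower. By role, 49 of 66 pore subunits, 3 of 4 modifier subunits and 19 of 25 auxiliary subunits were higher. Over all genes tested in reads, 45.9% were higher and 28.1% lower. Of the genes tested, 27 potassium, 3 sodium and 9 calcium channel genes had no ESC sample at 10 reads and so entered through the NPC samples, among them 32 pore subunits, 1 modifier subunit and 6 auxiliary subunits. These counts moved with scaling. After quantile normalization, counts higher and lower were 36 and 18 for potassium, 6 and 5 for sodium and 15 and 3 for calcium channel genes, and 41 and 18 for pore, 1 and 1 for modifier and 15 and 7 for auxiliary subunits. After median scaling, 1 sodium channel gene was lower, and without ESC replicate 3, Scn3a was. No test compared these groups with each other. Among genes at the limit of detection, 21 had 0 reads in every ESC sample, of which 20 had reads in NPCs, and 34 did not reach the read filter at all. A gene with 0 reads in a sample may have had up to 3 reads at this depth, so low levels in ESCs were not detectable here, and these limits cover counting error only.

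**Figure D3:**
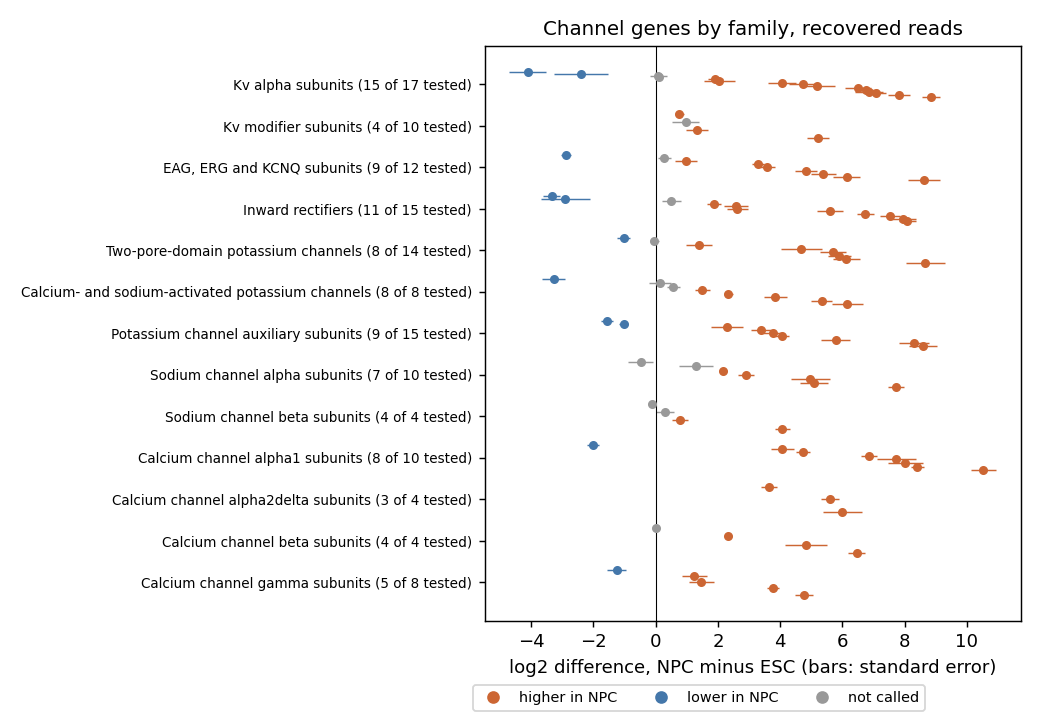
Log2 difference in reads, NPC minus ESC, of the 95 channel genes tested on recovered reads, in rows by family, with 1 point per gene and bars for the standard error. Points right of 0 are higher in NPCs, 71 genes were called higher, 11 lower and 13 not called; fitted differences of genes at or near 0 reads in ESCs depend on the small count added by the model, and points near 0 change sides with the scaling.

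Some channel genes lie side by side, and neighbours did not always move together. On chromosome 6, Kcna5, Kcna1 and Kcna6 lie 105 and 61.9 kb apart, and all were higher in NPCs. On chromosome 3, Kcna3 and Kcna2 lie 63.1 kb apart; Kcna3 was higher, with 3, 1 and 0 reads against 51, 35 and 52, and Kcna2 was lower. On chromosome 11, Cacng4 was higher and Cacng5, 80.1 kb away, lower, and on chromosome 14 Kcnk5 was lower and Kcnk16, 79.6 kb away, higher. Scn2b, which was not called, lies 8.32 kb from Scn4b, which was higher. On chromosome 2, Scn3a lies 53.1 kb from Scn2a, with Scn2a higher and Scn3a not called.

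Contacts with the nucleolus were compared next. Nucleolus-associated domains (NADs) are the regions where H2B-Dam-NoLS methylated more than H2B-Dam, deposited as 1769 intervals for ESCs and 1447 for NPCs (mm10) without replicate values. A NAD of ESCs overlapped 31 of the 131 channel genes (23.7%, against 27.1% of 21394 placed genes), and a NAD of NPCs overlapped 22 (16.8% against 21.6%). NADs of both cell types overlapped 13 genes (9.92% against 14.5%), ESC NADs alone 18 (13.7% against 12.6%) and NPC NADs alone 9 (6.87% against 7.12%). Some genes with long spans, such as Kcnq5 and Kcnma1, were overlapped in part. Counted by transcription start, 20 genes lay in NADs of ESCs (15.3% against 23.6% of placed genes) and 12 in NADs of NPCs (9.16% against 18.9%).

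Of the 18 genes in ESC NADs alone, 13 were tested on reads, 12 of these were higher in NPCs and 1, Scn3b, was not called. Over all genes of that class, 46.9% of those tested were higher and 27.3% lower. Of the 13, 8 had no ESC sample at 10 reads, so they entered through the NPC samples and had to be higher. Kcnj2 lay within a NAD of ESCs at chr11:110700199-111199386, which had no counterpart over the gene in NPCs, and its neighbour Kcnj16 in the same NAD had 0, 5 and 2 reads in ESCs and 0 in each NPC sample. Kcnq3, Kcnt1, Scn1a and Cacna1b were likewise fully within ESC NADs alone and higher in NPCs, and so was Kcns3, whose call depended on scaling. Any overlap counted for this class, and its other risers were covered only in part. ESC NADs covered 2.1% of Cacna1c, 2.8% of Kcnh1, 20.1% of Cacna1e, 23.5% of Kcnj4, 28.6% of Cacnb4 and 33.5% of Kcnmb2. Of the 9 genes in NPC NADs alone, 7 were tested, with 2 higher and 2 lower, against 47.4% and 27% of all genes tested in that class. The 2 lower genes had no NPC sample at 10 reads, so they entered through the ESC samples and had to be lower. Kcnu1 and Kcnc4 were fully within NPC NADs and lower in NPCs, though the call of Kcnc4 depended on single samples, as given above. Scn2a was fully within an NPC NAD and higher, and Kcnk1, 86.7% covered, was not called. After quantile normalization, the uncalled genes of this class, Kcnk1, Kcnn2 and Scn3a, were called lower as well. Of the 13 genes with NADs in both cell types, 10 were tested, 9 higher and 0 lower, against 47.9% and 20.6% of all genes of that class, and 6 of the 10 had no ESC sample at 10 reads. Cacnb2 and Kcnc2 lay fully within NADs in both cell types and both rose. Of 91 genes in no NAD, 65 were tested, 48 higher and 9 lower (73.8% and 13.8%, against 45.1% and 30.2% of all genes), and 25 of the 65 had no ESC sample at 10 reads. Genes of each class thus included risers, and no test linked the change in contact to the change in expression.

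Genes that work with these channels changed in both directions, with a balance that depended on the filter. In recovered reads, as used for the channel genes, counts higher and lower were 6 and 3 of 11 HCN, NALCN and related channels, 5 and 1 of 6 tested partners of potassium channels, 8 and 1 of 9 of sodium channels and 9 and 2 of 15 of calcium channels, against 45.9% and 28.1% of all genes. No ESC sample had 10 reads for 3, 2, 1 and 4 of these. After quantile normalization the counts were 4 and 4, 3 and 1, 7 and 1, and 8 and 2. Without ESC replicate 2 or any of the NPC replicates, 1 calcium channel partner was lower. The RPKM filter admits fewer of them. Of 14 HCN, NALCN and related channels, 6 were tested at a mean of 0.1 RPKM, with 2 higher (Tpcn1, a channel of endolysosomes, and Hcn3) and 2 lower (the pacemaker channel Hcn2 and the proton channel Hvcn1). Of 10 partners of sodium channels, 2 were tested: Fgf11, a homologous factor that binds the channel's C terminus, rose from 0.780 ± 0.0883 to 12.1 ± 1.5 RPKM (n = 3 each, adjusted p = 9.52e-07), and Sptbn4, a spectrin of the axon initial segment, fell from 0.222 to 0.0255. Of 10 partners of potassium channels, 3 were tested, with Amigo1, which binds channels of neurons, higher (0.669 to 1.71 RPKM) and Lrrc26 and Kcnrg lower. Of 15 partners of calcium channels, 10 were tested, 5 higher and 2 lower. Among these, Rem2 and Rrad, small GTPases that inhibit calcium channels, rose to 1.82 and 0.591 RPKM, and Cabp1, a calcium sensor, fell from 1.74 to 0.444.

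REST is a repressor that binds the RE1 element and is known to keep neuronal genes, channel genes among them, silent outside neurons. Rest had 18.3, 18.2 and 9.67 RPKM in ESCs and 6.94, 7.48 and 7.09 in NPCs, with a log2 difference of -0.95 ± 0.24 at the 1 RPKM filter (adjusted p = 0.0111). All ESC samples were above all NPC samples, and the lowest was ESC replicate 3. Of 8 genes in a list of Rest and its corepressor complex, 7 were tested at this filter, Rest included. Rcor1 and Rcor2 were higher, Rest and Hdac1 were lower, and 3 were not called. The part of REST in the channel values was not tested.

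Promoters were read from RefSeq (GRCm38.p6), 250 bases before to 50 after each transcript start, and 97 of the 131 genes matched with 133 promoters. They were searched on both strands for TTCAGCACC, the left part of the RE1 element, and GGACAG, its right part. TTCAGCACC was found in 1 channel promoter (0.752%, against 0.371% of 32851 promoters) and GGACAG in 33 (24.8% against 22.2%). The promoter of Kcnh6, an ERG-type pore, was the single channel promoter with both, at positions 65 and 81 on the plus strand; both were found, at any distance and on any strand, in 30 of the 32851 promoters (0.0913%). Kcnh6 had 17, 13 and 5 reads in ESCs and 2, 3 and 6 in NPCs, below the read filter, and lay in a NAD of ESCs. It is printed because it holds both parts, and the promoters of Kcna5 and Cacnb3, which rose, because they hold the right part alone. The right part was also found in promoters of Cacng5, which was lower, and of Cacnb1, which was not called. A further promoter of Cacnb3 held neither part. Capitals mark the matches, and CTGTCC is GGACAG read on the other strand. A match describes letters and does not show binding. No distance between the parts was required, so finding both does not show a whole RE1 element.
Kcnh6, chr11:106007898-106008197, plus strand: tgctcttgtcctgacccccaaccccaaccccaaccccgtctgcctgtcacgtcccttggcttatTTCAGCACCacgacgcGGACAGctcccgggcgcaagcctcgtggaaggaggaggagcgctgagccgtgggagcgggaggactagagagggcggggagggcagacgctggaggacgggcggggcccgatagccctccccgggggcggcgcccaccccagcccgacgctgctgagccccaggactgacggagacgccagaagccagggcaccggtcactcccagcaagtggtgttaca
Kcna5, chr6:126535506-126535805, minus strand: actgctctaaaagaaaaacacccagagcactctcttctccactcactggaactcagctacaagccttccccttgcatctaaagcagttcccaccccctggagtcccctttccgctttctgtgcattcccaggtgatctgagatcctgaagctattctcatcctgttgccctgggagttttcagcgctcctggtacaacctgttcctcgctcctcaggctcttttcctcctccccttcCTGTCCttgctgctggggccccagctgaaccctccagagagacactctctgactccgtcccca
Cacnb3, chr15:98632078-98632377, plus strand: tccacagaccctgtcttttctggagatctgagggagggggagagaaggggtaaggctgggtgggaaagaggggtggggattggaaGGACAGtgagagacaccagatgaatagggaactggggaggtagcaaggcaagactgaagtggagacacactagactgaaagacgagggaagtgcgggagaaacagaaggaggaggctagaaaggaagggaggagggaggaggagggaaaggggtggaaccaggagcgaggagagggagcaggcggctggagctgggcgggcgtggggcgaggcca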

How the data were processed

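RNAseq values of 3 ESC and 3 NPC samples and the NAD lists of both cell types were used; ChIPseq was not. The authors removed rRNA reads, trimmed, mapped to mm10 and deposited RPKM values per gene, from exon reads and the whole gene span. Their methods name STAR and a custom pipeline, the sample labels Bowtie2 2.3.4.3 and Subread 1.4.6-p4, so how reads were mapped and counted is not settled; annotation and use of strand are not stated. For NADs, the authors normalized H2B-Dam-NoLS to H2B-Dam, kept peaks common to both experiments and deposited 1 score for each NAD.

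Whole reads were recovered from RPKM, gene span and the steps between low values (within 0.05 of a whole number in every sample for 98.72% of 18151 genes with values above 0 and a length); exon lengths came from GENCODE M21. Groups were compared with limma 3.58.1 in R 4.3.3 (lmFit, eBayes with trend) on log2(RPKM + 1), with 1 RPKM in 3 of 6 samples, on log2(RPKM + 0.1), with a mean of 0.1 RPKM, and with voom on reads, 10 in 3 samples. P-values were adjusted over all genes tested (Benjamini-Hochberg) and called under 0.05. A pseudocount shrinks log2 differences of low genes, so ratios are of reads scaled to depth (RPM). Errors are SD for levels and standard errors for log2 differences. Symbols on more than 1 line (153, among them Cacng6, Cacng7 and Cacng8) were left out of the RPKM fits; identical lines were joined for reads. The fits were tested on simulated data, with noise set from the NPC replicates or, for reads, fixed. That noise leaves out the spread of ESC replicate 3, so error rates in these data were not tested. Python 3.11.15 was used for other steps with pandas 2.3.3, numpy 2.4.6, matplotlib 3.10.9 and scipy 1.17.1.

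Named genes are the leading gene of each family in each cell type, the 4 largest rises and falls called at 1 RPKM, the 3 largest at 0.1 RPKM alone, and the 2 largest in each of 8 marker and 5 partner lists, with Pax6, Tubb3, Pou5f1 and Rest; other genes were chosen after their values were seen. Members and lists were chosen with earlier results of these data known. 1 matching symbol is not reported here, and some genes that these rules name are not described; they are kept in counts and sums.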

Additional observations from a re-analysis of the deposited data

How the results depend on the processing

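Alternatives on reads, identical lines and exon length were chosen after seeing the data. The 6 and 1 channel genes called higher and lower at 1 RPKM became 73 and 10 with no filter and 21 and 5 with the 0.1 RPKM filter, which admit more genes; 3 were lower after quantile normalization, 0 with a 2-fold limit, and 1 to 2 when samples were left out in turn, with 2 without ESC replicate 3. The 21 and 5 at 0.1 RPKM became 76 and 10 with no filter and 6 and 1 with the 1 RPKM filter; 9 were lower after median scaling, 10 after quantile normalization and 2 with a 2-fold limit. In reads, the count of 11 lower was 6 at a minimum of 50 reads, which tests fewer genes, and 26 after quantile normalization; 71 higher became 52 to 70. With the replicate number as a block, which has no base in the values (correlations of deviations 0.114, -0.084 and 0.032 for equal numbers), counts were 6 and 1, 21 and 5, and 70 and 11, without Kcnh4.

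In the marker and partner lists, calls at 1 RPKM became 77 higher and 35 lower with no filter and 45 higher with the other filter, and calls at 0.1 RPKM 81 higher with no filter and 23 higher and 21 lower with the other filter. In reads, 76 were higher and 34 lower, and 63 and 39 after quantile normalization. Genes above the level limit numbered 8 in ESCs, 21 in NPCs and 6 in both at 0.5 RPKM, 1, 3 and 1 at 2 RPKM, and 13, 37 and 8 on the exon scale. NAD overlaps by transcription start were 20 in ESCs, 12 in NPCs and 5 in both; counting only NADs that score no lower than the median, 14, 8 and 4; with 50% of the gene covered, 8 in both.

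These log2 differences changed sign after quantile normalization: at 1 RPKM, Calm3 to 0.04; at 0.1 RPKM, Kcns3 to -0.32, Acta1 to -0.16 and Calm3 to 0.05; in reads, Cacnb1 to -0.50, Cacng6 to -1.12, Cacng8 to -0.91, Kcna7 to -0.52, Kcnd1 to -0.92, Kcnf1 to -0.64, Kcng3 to -1.25, Kcnh4 to -1.08, Kcnh7 to -1.46, Kcnj14 to -1.92, Kcnj9 to -0.18, Kcnk6 to -0.00, Kcnn2 to -1.19, Kcnn4 to -2.26, Kcns3 to -0.12, Kcnt2 to -0.38, Scn3b to -1.35 and Scn4a to -1.43. The cause was not tested.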
